A study of Caenorhabditis elegans with 6 samples.

Results

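Heterochronic genes set the order and timing of cell fates in the Caenorhabditis elegans larva. The 9 genes described here are lin-29, mab-10, lin-41, lin-14, lin-28, hbl-1, lin-46, lin-42 and daf-12, taken by their symbols from the 46748 gene rows of the count tables. All 9 had a row, and all 9 passed the filter on low counts, as did 11955 genes in all. The study sequenced RNA of anchor cells in 3 libraries and RNA of whole-body cells in 3 libraries. Both groups came from wild-type (WT) larvae grown at 20 °C on NA22 bacteria and collected at mid L3, when the vulval precursor P6.p had given a pair of daughters. The anchor cell is the uterine cell that breaches the basement membrane over the vulva. In both groups SDS, DTT and pronase E freed the cells from the larvae and they were passed through a filter of 5 μm, and the sources used here do not state how anchor cells were then separated.

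In the known pathway, early regulators such as LIN-14, LIN-28 and HBL-1 hold cells in the fates of young larvae. They are silenced in turn by the microRNA lin-4 and by microRNAs of the let-7 family. LIN-41, an RNA-binding protein that let-7 silences, in turn holds back the mRNAs of lin-29 and mab-10, whose proteins drive the switch to the adult in epidermal cells. In the anchor cell lin-29 has a separate known role, in the connection of uterus, vulva and epidermis.

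The libraries held 23279623 to 37501816 counts on genes. At that depth 3 counts, the limit that a count of 0 allows, correspond to 0.0800 to 0.129 CPM (counts scaled to a common library size) before the TMM scaling used for all levels below. Of the 9 markers set for the anchor cell, 6 rose in the anchor cell libraries and none fell. The other 3, lin-3, zmp-1 and him-4, had log2 fold changes of 1.73, 0.61 and -0.72 and did not pass the test. Of all tested genes, 2.01% rose and 1.05% fell. The summed level of the 9 markers was 1200 to 2208 CPM in anchor cells, against 324 to 610 CPM in the whole body. Within those sums him-4 alone had 133 to 262 CPM in anchor cells and 218 to 433 CPM in the whole body. Anchor cell libraries were less alike (Spearman's rho 0.763 to 0.795 across genes, which are not independent replicates) than whole-body libraries (0.888 to 0.955). Markers of body muscle summed to 4635 to 6540 CPM in anchor cell libraries, against 10686 to 15236 CPM in the whole body, and those of neurons to 651 to 1028 CPM in anchor cell libraries, against 290.3 to 506 CPM in the whole body. The 5 germ line markers summed to 17.9 to 48.4 CPM in anchor cell libraries, against 206 to 286 CPM in the whole body. Anchor cell replicate 1 stood apart, with 48.1% of its counts on the mitochondrial genome, against 22.9% and 23.9% in replicates 2 and 3 and 4.68% to 7.17% in whole-body libraries. Nuclear rRNA took 18.4%, 42.5% and 33.2% of the counts in anchor cell replicates 1, 2 and 3. In whole-body replicates 1, 2 and 3 it took 51.9%, 31.8% and 53.8%. Nothing in the labels says that replicates came from separate cultures, so p-values measure the spread between these libraries, which may be technical. In bulk libraries, fewer cells of a type and less RNA per cell cannot be told apart.

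Of the 9 heterochronic genes, lin-29 rose in anchor cells and no other member passed the test in either direction. On average lin-29 had 719 ± 426 CPM in anchor cells and 53.6 ± 21.9 CPM in whole-body cells (mean ± SD, n = 3 each), a fold of 13.4 with a 95% interval of 5.15 to 34.9. By edgeR's quasi-likelihood test 1 of 9 members was higher, where 2.01% of all tested genes were. None of the 9 was lower, where 1.05% of all tested genes were. At an unadjusted p under 0.05, edgeR likewise had 1 member higher and 0 lower, where 11.2% and 13.2% of all tested genes were. DESeq2 and limma voom each called lin-29 higher and 0 members lower. DESeq2 had 9.33% of the genes it gave an adjusted p higher and 10.8% lower, and limma voom 3.45% and 9.47%. The median log2 fold change of the 9 members was 0.13, against -0.12 over all tested genes.

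lin-29 (chromosome II, 11917642 to 11935343, minus strand, WBcel235) encodes a zinc finger transcription factor and is the last regulator of the pathway. It had 234, 1036 and 885 CPM in anchor cell replicates 1, 2 and 3, against 45.5, 78.4 and 36.9 CPM in whole-body replicates 1, 2 and 3. These rest on 5883, 20257 and 18379 counts in anchor cells and 1879, 4872 and 1043 counts in whole-body cells. Every anchor cell library lay above every whole-body library, and the lowest anchor cell library was replicate 1. The log2 fold change was 3.74 ± 0.62 (SE; edgeR adjusted p = 0.0175), and lin-29 ranked 228 of 11955 genes by fold change and 84 by p. On the log2(CPM + 1) scale replicates 1, 2 and 3 of the anchor cells stood 2.18, 4.32 and 4.09 above the whole-body mean. Without anchor cell replicate 1, the library with the most mitochondrial counts, the log2 fold change of lin-29 was 4.17. The call was lost without anchor cell replicate 2 (3.39, edgeR adjusted p = 0.0545) or whole-body replicate 3 (3.53, edgeR adjusted p = 0.0932). The annotation holds 3 transcripts of lin-29, which counts per gene do not separate.

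lin-29 is best known from epidermal cells, so the markers of those cells belong beside its values. The 6 hypodermis markers summed to 111, 581 and 952 CPM in anchor cell replicates 1, 2 and 3, against 85.4 to 309 CPM in whole-body libraries, with 0 rising and 0 falling by edgeR and none of the 6 at 0 counts in any anchor cell library. At an unadjusted p under 0.05, 2 of these 6 were higher and 0 lower, where 11.2% and 13.2% of all tested genes were. DESeq2 called 2 higher, where it called 9.33% of genes higher, and limma voom called 0. The 9 anchor cell markers summed to 1200, 2208 and 1790 CPM in the same anchor cell libraries. Both sums, like lin-29, were lowest in replicate 1, and their part in the lin-29 difference was not tested. The hypodermis markers did not all run that way. In anchor cell replicates 1, 2 and 3 dpy-13 had 38.2, 435 and 712 CPM and rol-6 19.6, 90.0 and 158 CPM. There col-10 had 15.7, 32.7 and 44.1 CPM and col-12 2.79, 7.93 and 5.97 CPM, so these were lowest in replicate 1 too. In the same libraries elt-3 had 28.8, 13.8 and 6.79 CPM and dpy-7 5.49, 1.74 and 25.7 CPM. The median log2 fold change of the 6 hypodermis markers was 1.39, with 4 above 0, against a median of -0.12 over all tested genes. The 8 seam cell markers summed to 307, 204 and 245 CPM in anchor cell replicates 1, 2 and 3 and to 147 to 239 CPM in whole-body libraries. Of the 5 of these that were tested, egl-18 rose, by 1.98 on the log2 scale, and grd-10 fell, by 3.32. By edgeR 2.01% of all tested genes rose and 1.05% fell. The median of these 5 seam markers was 1.76. The 3 that did not pass were elt-6 (3.17, edgeR adjusted p = 0.0828), rnt-1 (1.76, edgeR adjusted p = 0.538) and wrt-2 (-0.21, edgeR adjusted p = 0.910). At an unadjusted p under 0.05, 2 seam markers were higher and 1 lower, where 11.2% and 13.2% of all tested genes were. The seam markers bro-1 and nhr-73 had 0 counts in every anchor cell library, and ceh-16 had 1 count over all of them. In whole-body libraries bro-1 had 10, 32 and 49 counts, ceh-16 63, 88 and 7, and nhr-73 had 0 there too.

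mab-10 (chromosome II, 10528084 to 10534380, plus strand) encodes a NAB-type cofactor that binds LIN-29. It had 110, 65.6 and 113 CPM in anchor cell replicates 1, 2 and 3, against 64.8, 61.0 and 58.4 CPM in whole-body replicates 1, 2 and 3. All anchor cell libraries lay above all whole-body libraries, with replicate 2 above them by little. Of the 9 members, 2 (lin-29 and mab-10) showed such a separation and 0 the opposite one, where 12.4% of all tested genes did in this direction and 23.2% in the other. The log2 fold change of mab-10 was 0.65 ± 0.41 (SE; edgeR adjusted p = 0.379), with a 95% interval of -0.26 to 1.55, and it turned to -0.17 when only library totals were used for scaling. Its exons overlap those of R166.2 on the other strand by 49 bases, and the strand setting of the counting is unknown.

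**Figure D1:**
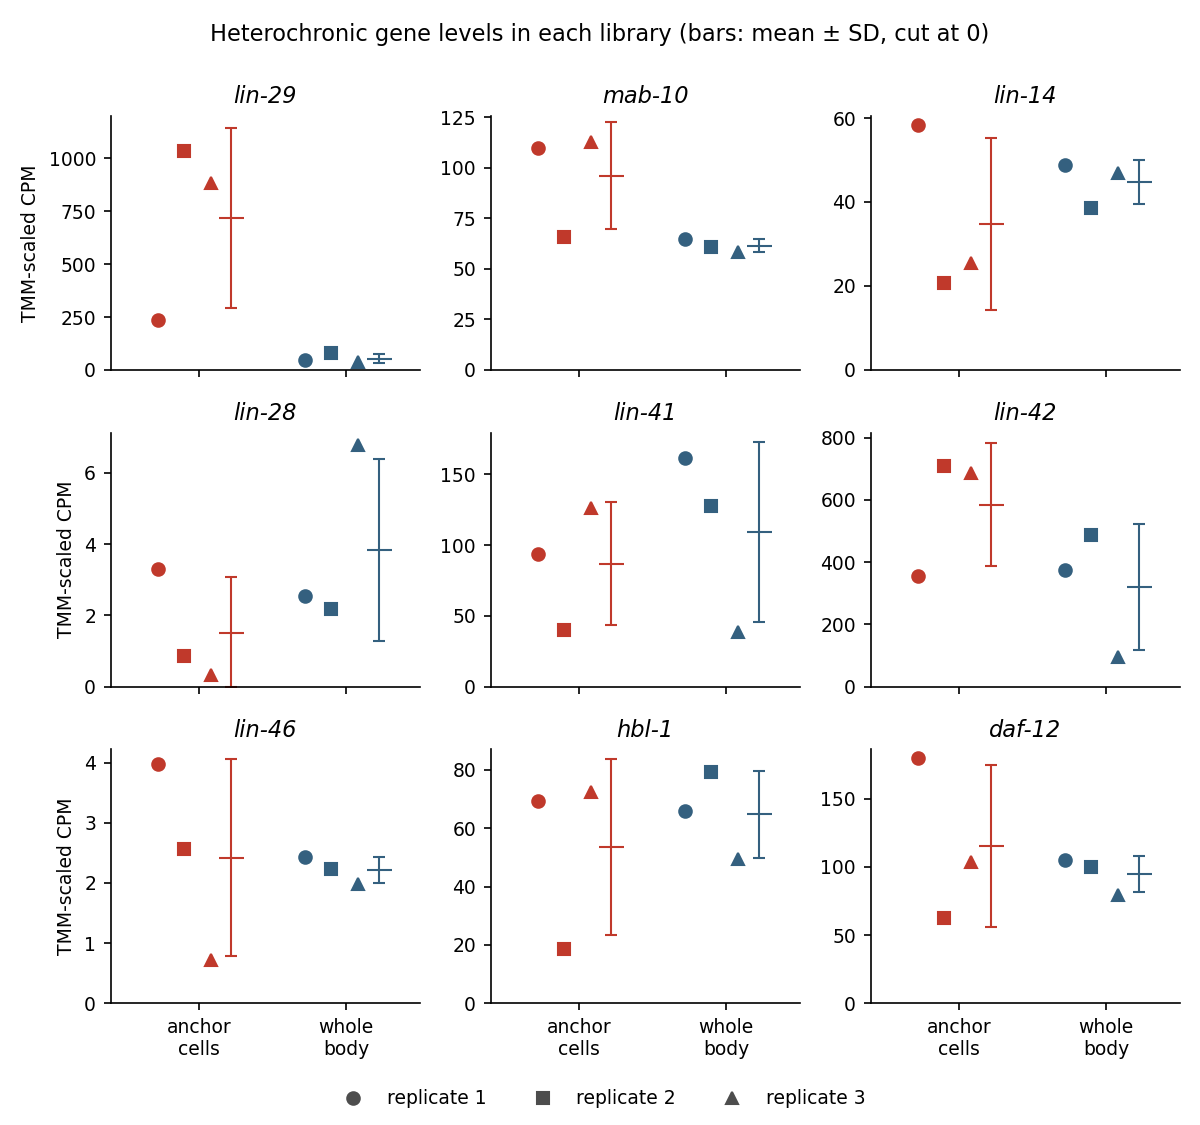
Level of each heterochronic gene in CPM (TMM scaling), on a linear axis from 0 that differs between panels. Red symbols are the 3 anchor cell libraries and blue symbols the 3 whole-body libraries, each symbol shape 1 replicate number, with the mean ± SD beside them (lower ends below 0 are drawn at 0). Only lin-29 and mab-10 have all anchor cell symbols above all whole-body symbols.

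lin-41 (chromosome I, 9334800 to 9342496, minus strand) encodes the TRIM-NHL protein that binds the lin-29 and mab-10 mRNAs. It had 93.9, 40.1 and 126 CPM in anchor cell replicates 1, 2 and 3, against 162, 128 and 38.5 CPM in whole-body replicates 1, 2 and 3. The range of the anchor cell libraries lay inside that of the whole-body libraries. Its log2 fold change was -0.33 ± 0.60 (SE; edgeR adjusted p = 0.791; 95% interval -1.66 to 0.997). With anchor cell replicate 2 left out lin-41 stood at 0.018, and with whole-body replicate 1 left out at 0.064.

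lin-14 and hbl-1 had more counts than lin-28 and lin-46 in every library, and none of these 4 passed the test between the groups. lin-14 (chromosome X, 11465560 to 11485871, plus strand) encodes a transcription factor of the first larval stage. It had 58.3, 20.7 and 25.4 CPM in anchor cell replicates 1, 2 and 3, against 48.8, 38.7 and 46.8 CPM in whole-body replicates 1, 2 and 3. Anchor cell replicates 2 and 3 lay below all whole-body libraries and replicate 1 above them. The log2 fold change of lin-14 was -0.36 ± 0.52 (SE; edgeR adjusted p = 0.732), and the 95% interval of -1.53 to 0.80 covers both directions. The snoRNA genes T25C12.11 and T25C12.12 lie within its exons on the same strand, over 108 and 99 bases.

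hbl-1 (chromosome X, 5822142 to 5827755, plus strand) encodes a Hunchback-like zinc finger protein of the second larval stage. It had 69.4, 18.6 and 72.5 CPM in anchor cell replicates 1, 2 and 3, against 65.7, 79.3 and 49.5 CPM in whole-body replicates 1, 2 and 3. Anchor cell replicate 2 was the lowest of the 6 and the other libraries were intermingled. hbl-1 differed by a log2 fold change of -0.28 ± 0.55 (SE; edgeR adjusted p = 0.813; 95% interval -1.51 to 0.95).

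lin-28 and lin-46 were the members with the fewest counts. lin-28 (chromosome I, 8407630 to 8410804, minus strand) encodes the RNA-binding protein that blocks maturation of let-7. It had 3.30, 0.87 and 0.34 CPM in anchor cell replicates 1, 2 and 3, from 83, 17 and 7 counts, against 2.54, 2.19 and 6.79 CPM in whole-body replicates 1, 2 and 3, from 105, 136 and 192 counts. Anchor cell replicates 2 and 3 lay below all whole-body libraries, whereas replicate 1 lay within their range. The log2 fold change of lin-28 was -1.35 ± 1.24 (SE; edgeR adjusted p = 0.560), and the 95% interval of -4.10 to 1.41 is the widest of the 9. Its exons overlap those of F02E9.1 on the other strand by 16 bases.

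lin-46 (chromosome V, 12968855 to 12970730, plus strand) encodes a gephyrin-like scaffold protein that acts against HBL-1. It had 3.98, 2.56 and 0.72 CPM in anchor cell replicates 1, 2 and 3, from 100, 50 and 15 counts, against 2.42, 2.24 and 1.98 CPM in whole-body replicates 1, 2 and 3, from 100, 139 and 56 counts. The anchor cell libraries lay on both sides of the whole-body libraries. lin-46 differed by a log2 fold change of 0.13 ± 1.14 (SE; edgeR adjusted p = 0.964; 95% interval -2.41 to 2.67), and -0.62 with scaling by library totals.

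lin-42 and daf-12 link the pathway to the molting rhythm and to steroid hormone. lin-42 (chromosome II, 1233236 to 1252359, minus strand) encodes the worm's homolog of the clock protein Period. It had 356, 710 and 686 CPM in anchor cell replicates 1, 2 and 3, against 376, 487 and 95.5 CPM in whole-body replicates 1, 2 and 3. Anchor cell replicates 2 and 3 were the highest of the 6, and replicate 1 lay below whole-body replicates 1 and 2. The log2 fold change of lin-42 was 0.87 ± 0.57 (SE; edgeR adjusted p = 0.401; 95% interval -0.41 to 2.15), and -0.091 with scaling by library totals.

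daf-12 (chromosome X, 10635908 to 10666875, plus strand) encodes the nuclear receptor for dafachronic acids, which couples stage to growth conditions. It had 180, 62.6 and 103 CPM in anchor cell replicates 1, 2 and 3, against 105, 99.6 and 79.6 CPM in whole-body replicates 1, 2 and 3. Anchor cell libraries spread from below all whole-body libraries to above them. daf-12 differed by a log2 fold change of 0.29 ± 0.46 (SE; edgeR adjusted p = 0.765; 95% interval -0.73 to 1.305). It was -0.19 without anchor cell replicate 1 and -0.49 with scaling by library totals.

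**Figure D2:**
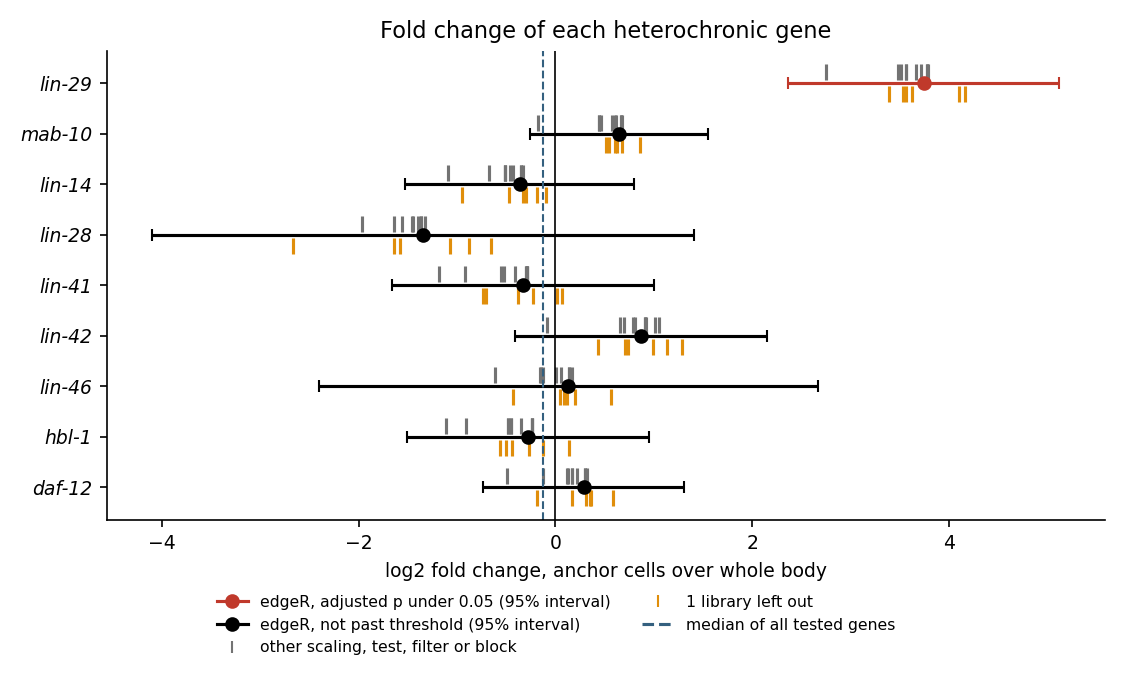
Log2 fold change of each heterochronic gene, anchor cells over whole-body cells, on the horizontal axis. Circles are the edgeR estimates with 95% intervals (red where the adjusted p was under 0.05), grey ticks the other scalings, tests, filters and the replicate block, orange ticks the fits that each left out 1 library, and the dashed line the median of all tested genes. All ticks of lin-29 lie between 2.75 and 4.17, and the intervals of the other 8 genes include 0.

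The 3 anchor cell libraries differed from each other in these genes. On the log2(CPM + 1) scale lin-14, lin-28, lin-41, hbl-1 and daf-12 stood below the whole-body mean in anchor cell replicate 2. Their differences there were -1.07, -1.25, -1.19, -1.72 and -0.58, against 0.38, -0.047, 0.017, 0.12 and 0.93 in replicate 1. In replicate 3 they were -0.79, -1.73, 0.44, 0.18 and 0.14. lin-29, mab-10 and lin-42 stood above the whole-body mean in all 3 libraries. Matching shares of all tested genes were not computed, so a shift of a whole library was not tested. The scaling moves every such value: over all tested genes the median was -0.12 with TMM and -0.94 with library totals. Relative to that median, lin-29 was higher by 3.87 with TMM and 3.69 with library totals, lin-42 by 0.99 and 0.84, and mab-10 by 0.77 and 0.76.

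Comparisons within a library do not depend on scaling. lin-29 made up 21.1%, 52.9% and 44.0% of the counts of the 9 genes in anchor cell replicates 1, 2 and 3, against 5.22% to 8.91% in whole-body libraries. lin-42 made up 32.1% to 36.3% in anchor cell libraries and 23.1% to 49.9% in whole-body libraries, so its share overlapped between the groups. lin-41 made up 2.05% to 8.47% in anchor cell libraries and 9.30% to 18.5% in whole-body libraries. Shares within a library sum to a whole, so a larger share of 1 gene lowers those of the others.

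The ratio of lin-29 to mab-10, transcription factor to cofactor, was 2.13 to 15.8 in anchor cell libraries and 0.63 to 1.29 in whole-body libraries, in counts. The ratio of lin-29 to its known repressor lin-41 was 2.49 to 25.8 in anchor cell libraries and 0.28 to 0.96 in whole-body libraries. For lin-42 it was 0.66 to 1.46 in anchor cell libraries and 0.12 to 0.39 in whole-body libraries. For each of the 8 ratios, one to each other member, every anchor cell library lay above every whole-body library. All 8 have lin-29 on top, so they restate its difference on a scale free of library size and are not separate evidence. The differences between group means of the log2 ratios were 2.45 (lin-42) to 5.32 (lin-28). An exact two-sided permutation test gave p = 0.1 for each of the 8, before and after Benjamini-Hochberg adjustment, which is the smallest that 3 libraries against 3 allow and could pass no threshold of 0.05.

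**Figure D3:**
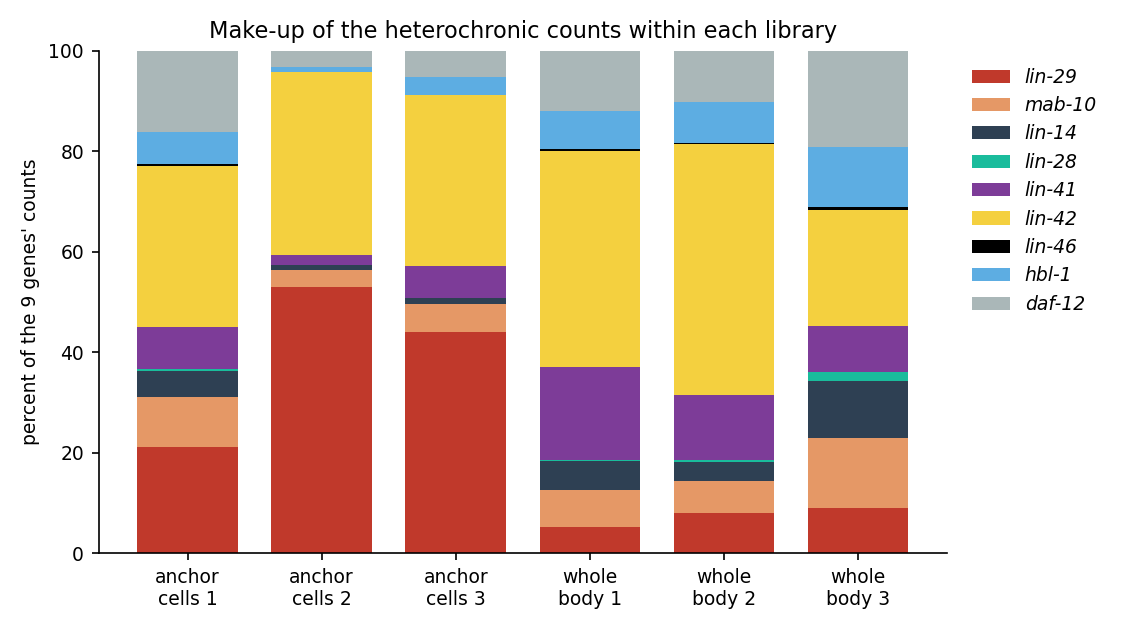
Percent of the summed counts of the 9 heterochronic genes that each gene takes within a library, for the 3 anchor cell libraries and then the 3 whole-body libraries. The red lin-29 block covers 21.1% to 52.9% in anchor cell libraries and 5.22% to 8.91% in whole-body libraries.

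Levels of different genes were compared as CPM per kilobase of annotated exon. In anchor cells the order was lin-29, lin-42, mab-10, daf-12, lin-41, hbl-1, lin-14, lin-46 and lin-28. lin-29 averaged 312 ± 185 and lin-42 146 ± 49.4 CPM per kilobase there (SD, n = 3), and lin-29 was above lin-42 in 3 of 3 libraries though their ranges overlapped. mab-10, daf-12, lin-41, hbl-1 and lin-14 followed at means of 33.4 to 9.50, each neighbour overlapping the next. lin-46 and lin-28 came last at 1.77 ± 1.20 and 1.03 ± 1.09, and only the steps after lin-42 and after lin-14 had no overlap. In whole-body cells lin-42 led at 79.7 ± 50.4 CPM per kilobase, above lin-29 at 23.3 ± 9.51 in 3 of 3 libraries, with overlapping ranges. lin-29, lin-41, mab-10 and daf-12 could not be ordered there beyond their spread. hbl-1, at 14.5 ± 3.33, lay below daf-12 with no overlap. Among 11666 tested genes of known exon length, lin-29 stood at percentile 96.8, 99.0 and 98.4 in anchor cell replicates 1, 2 and 3, against 86.7, 91.1 and 83.3 in whole-body replicates 1, 2 and 3.

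The microRNA loci that act on these genes gave few reads, in libraries that do not measure mature microRNAs. The row of let-7 (chromosome X, 14743590 to 14745321, annotated over 1732 bases) had 1, 1 and 0 counts in anchor cell replicates 1, 2 and 3, against 61, 156 and 11 counts in whole-body replicates 1, 2 and 3. The scaled ratio of anchor cells to whole-body cells was 0.0177, with an exact 95% interval of 0.00213 to 0.0645 that covers counting error only. Over all 3 libraries a group this is 2 counts against 228. It did not pass edgeR's test (adjusted p = 0.0879). DESeq2 and limma voom called let-7 lower, where they called 10.8% and 9.47% of genes lower. The row passed the filter on low counts only through its whole-body counts. A call could therefore only be lower, and no conclusion is drawn from these tests. mir-241 had 0 counts in every anchor cell library, against 5, 15 and 0 in whole-body replicates 1, 2 and 3, and mir-84 had 0 in every anchor cell library, against 1, 4 and 0 in those whole-body replicates. lin-4 had 0 counts in all 6 libraries. These 3 loci did not pass the filter on low counts, and mir-48 was not analysed here. Fewer genes had any count in anchor cell libraries (16990, 11508 and 11073) than in whole-body libraries (21246, 22216 and 17185). The noncoding RNA gene T25C12.5, in the span of lin-14, had 1, 0 and 0 counts in anchor cells, against 39, 43 and 3. The snoRNA gene T25C12.12 there kept 334, 94 and 244 counts in anchor cells, against 539, 1085 and 144.

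Of 12 other regulators and partners of the pathway, 11 were tested, and the 1 left untested was lin-4, already given above. Of the 11, 1 rose and 0 fell, where 2.01% and 1.05% of all tested genes did. The 1 that rose was pup-2, a poly(U) polymerase that acts with LIN-28 on let-7. It had 135, 139 and 167 CPM in anchor cell replicates 1, 2 and 3, against 43.6, 54.4 and 42.1 CPM in whole-body replicates 1, 2 and 3. Its log2 fold change was 1.66 ± 0.39 (SE; edgeR adjusted p = 0.0495), close to the threshold, and the call was lost without any 1 library other than anchor cell replicate 1. The median log2 fold change of the 11 was 0.47, against -0.12 over all tested genes. By edgeR's unadjusted p, 4 of the 11 were under 0.05 and higher and 0 lower, where 11.2% of all tested genes were higher. DESeq2 called 3 higher and 0 lower, where it called 9.33% of genes higher, and limma voom 2 higher and 0 lower, where it called 3.45% higher.

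The other 3 of those 4 are named after their values were seen. lep-5, a long noncoding RNA that acts on LIN-28, averaged 80.7 ± 23.9 CPM in anchor cells and 22.97 ± 2.02 CPM in whole-body cells (mean ± SD, n = 3 each). The zinc finger gene blmp-1 averaged 214 ± 87.4 CPM in anchor cells and 73.1 ± 28.0 CPM in whole-body cells. dre-1, an F-box protein gene whose product removes BLMP-1, averaged 133 ± 12.5 CPM in anchor cells and 58.2 ± 22.9 CPM in whole-body cells. Their edgeR adjusted p-values were 0.0597, 0.0768 and 0.122.

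None of 10 tested genes of microRNA processing and silencing passed edgeR's test in either direction. Their median log2 fold change was 0.059, with 0 at an unadjusted p under 0.05 and 0 by DESeq2 or limma voom. The most abundant were cgh-1, an RNA helicase gene of RNA granules, at 665 ± 344 CPM in anchor cells and 486 ± 66.9 CPM in whole-body cells, and the Argonaute gene alg-1, at 261 ± 106 CPM in anchor cells and 195 ± 70.7 CPM in whole-body cells (mean ± SD, n = 3 each). Of 9 genes around DAF-12, 8 were tested and none passed edgeR's test, with 0 at an unadjusted p under 0.05, 0 by DESeq2 or limma voom and a median of -0.045. The corepressor gene din-1 stood at 252 ± 78.0 CPM in anchor cells and 236 ± 44.4 CPM in whole-body cells. emb-8, a cytochrome P450 reductase gene, stood at 93.7 ± 65.7 CPM in anchor cells and 184 ± 69.3 CPM in whole-body cells (mean ± SD, n = 3 each).

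Of 9 regulators of the larval oscillator and of molting, 8 were tested and none passed edgeR's test, with a median log2 fold change of 0.39. At an unadjusted p under 0.05, 1 of the 8 was higher and 0 lower, where 11.2% of all tested genes were higher, so the count is near the background. DESeq2 and limma voom each called 1 higher, where they called 9.33% and 3.45% of genes higher. The gene under 0.05 was bed-3, a zinc finger gene of the molting rhythm and the vulva, named after its values were seen. It had 184, 109 and 253 CPM in anchor cell replicates 1, 2 and 3, against 33.5, 84.8 and 24.4 CPM in whole-body replicates 1, 2 and 3 (log2 fold change 1.93 ± 0.56, SE; edgeR adjusted p = 0.0714). By level the list was led by myrf-2, at 196 ± 117 CPM in anchor cells and 163 ± 25.2 CPM in whole-body cells, and pan-1, at 188 ± 69.0 CPM in anchor cells and 131 ± 27.8 CPM in whole-body cells (mean ± SD, n = 3 each).

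Of the 4 mRNAs reported as targets of LIN-41, lin-29 and dmd-3 rose, and mab-10 and mab-3 did not pass the test. Their median log2 fold change was 2.20, against -0.12 over all tested genes. By edgeR 2.01% of all tested genes rose. lin-29 and mab-10 are also members, so this list restates in part the rise of lin-29 and is not separate evidence. dmd-3, which encodes a DM-domain transcription factor known from the male tail, had 11.2, 257 and 141 CPM in anchor cell replicates 1, 2 and 3, against 1.07, 1.11 and 3.32 CPM in whole-body replicates 1, 2 and 3. All anchor cell libraries lay above all whole-body libraries, with replicate 1 far below replicates 2 and 3. Its log2 fold change was 6.23 ± 1.11 (SE; edgeR adjusted p = 0.0217). It was 6.78 without anchor cell replicate 1. The call was lost without anchor cell replicate 2 (edgeR adjusted p = 0.0643), without whole-body replicate 3 (0.0566) and with limma voom (0.0825). mab-3, also a DM-domain gene of the male tail, had 6.53, 0.10 and 2.65 CPM in anchor cell replicates 1, 2 and 3, against 12.3, 10.0 and 10.0 CPM in whole-body replicates 1, 2 and 3. mab-3 differed by a log2 fold change of -1.80 ± 1.16 (SE; edgeR adjusted p = 0.388).

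Of 3 genes reported to depend on LIN-29, 2 were tested and 1 rose, where 2.01% of all tested genes rose. The 1 that rose was the Notch ligand gene lag-2, which the anchor cell uses to signal to neighbouring uterine cells. It had 77.5, 194 and 160 CPM in anchor cell replicates 1, 2 and 3, against 7.31, 6.29 and 6.50 CPM in whole-body replicates 1, 2 and 3. Like lin-29, it was lowest in replicate 1 among the anchor cell libraries. Its log2 fold change was 4.42 ± 0.52 (SE; edgeR adjusted p = 0.00569). lag-2 was also among the anchor cell markers, so its rise is no separate evidence on LIN-29. The fusogen gene aff-1, through which the anchor cell fuses with its neighbours, had 15.2, 16.6 and 0.29 CPM in anchor cell replicates 1, 2 and 3, against 1.43, 0.27 and 3.43 CPM in whole-body replicates 1, 2 and 3. Replicates 1 and 2 lay above the whole-body libraries and replicate 3 did not (log2 fold change 2.65 ± 1.39, SE; edgeR adjusted p = 0.284). The adult collagen gene col-19, which LIN-29 turns on in epidermis, had 18, 0 and 0 counts in anchor cell replicates 1, 2 and 3, against 0, 7 and 2 counts in whole-body replicates 1, 2 and 3, and did not pass the filter.

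**Figure D4:**
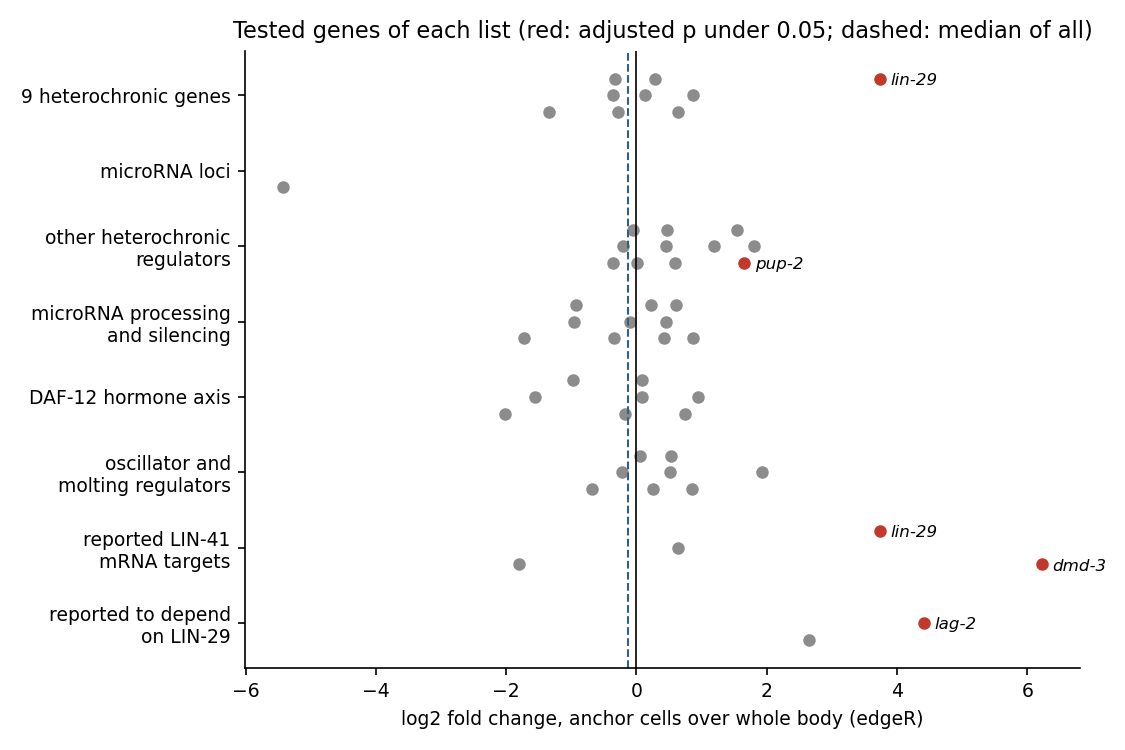
Log2 fold change of every tested gene (anchor cells over whole-body cells, horizontal axis) in the 9 heterochronic genes and in each pathway list. Red points passed edgeR's test at an adjusted p of 0.05, and the dashed line is the median of all tested genes. The 4 genes that passed were lin-29, pup-2, dmd-3 and lag-2, and the far left point is let-7, which rests on 2 counts in anchor cells.

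Genes whose levels ran most like lin-29 were found by Euclidean distance between mean-centred log2(CPM + 1) values over the 6 libraries. Among 3161 tested genes of at least 20 CPM on average in anchor cells, the nearest 5 were T06D8.10, T01B6.1, K05F1.10, his-41 and col-14, at distances of 0.84, 0.85, 0.88, 0.89 and 0.95. T06D8.10 had 128, 390 and 665 CPM in anchor cell replicates 1, 2 and 3, against 23.01, 52.3 and 15.4 CPM in whole-body replicates 1, 2 and 3. These genes were chosen over the same 6 libraries and for their level in anchor cells, so the likeness is a description of the choice. his-41 belongs to the histone genes, a multigene family with near-identical copies among which the counting could split reads, so its values are uncertain. col-14 is a cuticle collagen gene.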

How the data were processed

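The authors deposited raw counts (whole numbers, not normalized) in 6 tables of 46748 gene rows and 5 summary rows, which stayed out of library sizes and tests. Reads outside any gene made up 0.807% to 3.88% of a library. The submitters' processing notes name build WBcel235 and the tools STAR, HTSeq, Trim Galore, FastQC, DESeq2 1.30.1 and R 4.0.2, but no annotation release or strand setting. Libraries were amplified with the Ovation RNA-Seq kit, per the labels, which mention no molecular identifiers; such reads are not independent molecules, so intervals from counts cover counting error only.

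Genes were filtered by filterByExpr of edgeR 4.0.16, which left 11955, and scaled by TMM (factors 0.674 to 0.889 in anchor cells, 1.17 to 1.66 in whole-body cells). Groups were compared in R 4.3.3 by the quasi-likelihood F test of edgeR (robust) over all genes, with group as the only term and a Benjamini-Hochberg adjusted p threshold of 0.05. An SE is the absolute log2 fold change divided by the square root of F, and a 95% interval uses the test's degrees of freedom. The step was tested on simulated counts. It missed most of the smaller changes set there, which were themselves of several fold, so a gene that did not pass may still differ. Positions and exon lengths come from Ensembl release 115 of WBcel235, whose release may differ from the submitters'. No library duplicated another (chi-square at least 81.0 per degree of freedom for any pair in a group). DESeq2 1.42.0 and limma 3.58.1, run on the same filtered genes, were among the alternatives.

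The members, gene lists and tests were chosen with earlier results of these data known. Named genes are the 9 members, the list genes past the threshold (otherwise the 2 most abundant of a list) and the 5 genes nearest to lin-29. lep-5, blmp-1, dre-1, bed-3, mab-3, aff-1, T25C12.5 and T25C12.12, and the marker genes named, fall outside that rule and were chosen after their values were seen. Also outside the rule are col-19, mir-84 and lin-4, and T25C12.11, R166.2 and F02E9.1, whose exons overlap those of a member. Of the list genes, mir-48, ntl-1 and myrf-1 found no row by name, and lep-2, lep-5, strm-1 and myrf-2 stand under their sequence names. Within-library ratios were added after the data were seen. Sequence was not used here, so microRNA seed matches were not counted.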

Additional observations from a re-analysis of the deposited data

How the results depend on the processing

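lin-29 stayed above 0 in all 16 alternatives (2.75 to 4.17) and past the threshold in 14; the number of members called higher was 0 to 1, and the number called lower 0, over the 6 fits that each left out 1 library. The other 8 members passed in no alternative. mab-10 and lin-42 turned below 0 with library totals alone (-0.17 and -0.091), daf-12 in 3 alternatives and lin-46 in 5 of its 15. In the other direction, lin-41 turned above 0 in 2 alternatives and hbl-1 in 1. Over all genes, 240 were higher and 125 lower, 65.8% of calls higher. With library totals alone they were 98 and 372 (20.9% higher), with DESeq2 1037 and 1195 (46.5%), with limma voom 412 and 1132 (26.7%), with limma voom and sample weights 635 and 1311 (32.6%), with no filter 603 and 372, with at least 10 CPM in at least 3 libraries 273 and 197, and with the replicate block 390 and 338 (53.6%). With rRNA and mitochondrially encoded genes left out, 231 were higher and 122 lower (65.4% higher), and lin-29 was 3.79 (edgeR adjusted p = 0.0185). Leaving out 1 library gave 31 to 966 higher and 7 to 1156 lower. Without whole-body replicate 3 they were 31 and 7, and without anchor cell replicate 1, 966 and 1156. The cause of these changes was not tested. lin-28 and lin-46 had under 10 CPM and no value with that filter. Same-numbered libraries of the groups did not deviate together (correlations of 0.053, -0.032 and -0.0032 for replicates 1, 2 and 3), so the replicate block only shares a number; with it lin-29 was 3.57 (edgeR adjusted p = 3.57e-07), and pup-2 missed the threshold (edgeR adjusted p = 0.0521). pup-2 also missed it with upper-quartile scaling (0.0634), library totals alone (0.320) and no filter (0.0662).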
